A study of Mus musculus with 15 samples.

Results

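The regions described here are 2701 promoter peaks of mouse pancreatic islets that appeared in the deposited genotype comparison after partial pancreatectomy (PPx) and shared no base with any peak of the same comparison before the operation. They were taken from 8050 promoter peaks, within 3 kb of a transcription start site by the deposited annotation, and from 13111 peaks of every kind in that comparison. They lay near 2647 genes. The other 5349 promoter peaks overlapped a peak listed before PPx and serve as the reference below. Every listed peak was called in at least 2 libraries of its table, so the members were chosen by peak calls in the libraries described here, before and after PPx, and every genotype value below is a description of the chosen peaks.

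ATAC-seq maps open chromatin: the enzyme Tn5 inserts sequencing adapters where DNA is accessible. Every mouse was a male aged 3 months that carried floxed Arid1a (Arid1aFl/Fl) and MIP-rtTA, a doxycycline-dependent activator under the mouse insulin promoter, and the labels' protocol gives doxycycline in the drinking water for all mice. The KO-labelled mice carried TRE-Cre as well, so that deletion is directed to cells with insulin promoter activity and other islet cells keep the gene. Before PPx, 4 control and 3 KO-labelled mice gave islets, and 6 days after it 4 mice of each genotype did. The tables hold 1 mean per group, so no value of a single library and no spread between libraries can be shown, and the depth of each library is unknown. Islets are a mixture of cells, so fewer open cells and less opening per cell cannot be told apart.

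Arid1a codes for the subunit through which one form of the SWI/SNF complex binds DNA. The complex uses ATP to slide or evict nucleosomes. Active promoters usually keep a nucleosome-depleted gap just upstream of the start site, and that gap is what an ATAC-seq promoter peak records. PPx removes much of the pancreas and is used to make the remaining beta cells divide.

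The Arid1a peak on exon 9 (mm10, chr4:133692980-133693580) had, in the authors' deposited table, a log2 concentration of 0.40 in controls and 4.04 in KO-labelled islets after PPx, with an FDR of 0.00201. No control library had a call there, and 3 of 4 KO-labelled ones did. This peak was higher in the libraries labelled as knockout, and whether it lies in the deleted part was not tested, so it is no check of the deletion and the groups are called KO-labelled throughout. Of 30 beta cell genes, 16 had a peak after PPx, among them Ins1, Nkx6-1, Mafa and Slc30a8, and Ins2, Pdx1 and Slc2a2 had none. Marker genes of other cells also had peaks: 6 of 10 alpha cell, 4 of 10 delta and PP cell, 1 of 15 acinar, 2 of 10 ductal, 6 of 14 endothelial, 4 of 10 stellate and fibroblast, 3 of 10 leukocyte and 1 of 7 Schwann cell genes. Gcg and Sst, the hormone genes of alpha and delta cells, had a peak, and the acinar enzyme genes Cpa1 and Amy2a5 had none.

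To show the DNA under the peaks that passed most clearly, the 250 bases before the RefSeq start site are printed for 5 of the 12 gained peaks with the smallest FDR among named genes (without predicted, RIKEN and microRNA symbols), the first in that order whose RefSeq bases (GRCm38.p6, a patch release of the mm10 assembly) lie wholly inside the peak. Irf2bp1 (chr7:19003808-19004057, plus strand) encodes a transcriptional corepressor, and Dnajc19 (chr3:34081355-34081604, minus strand) a co-chaperone of mitochondrial protein import. Tbc1d9b (chr11:50131110-50131359, plus strand) encodes a TBC domain protein of membrane traffic. Zswim8 (chr14:20707302-20707551, plus strand) encodes a ubiquitin ligase receptor that directs microRNA decay, and Nin (chr12:70111630-70111879, minus strand) encodes ninein, which anchors microtubules at the centrosome. Sequences run 5′ to 3′, and capitals mark matches to 13 short motifs searched on both strands.
Irf2bp1: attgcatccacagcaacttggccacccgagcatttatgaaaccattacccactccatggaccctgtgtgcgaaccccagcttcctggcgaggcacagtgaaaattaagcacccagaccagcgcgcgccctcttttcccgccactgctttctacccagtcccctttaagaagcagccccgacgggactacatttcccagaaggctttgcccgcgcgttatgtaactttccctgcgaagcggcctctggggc
Dnajc19: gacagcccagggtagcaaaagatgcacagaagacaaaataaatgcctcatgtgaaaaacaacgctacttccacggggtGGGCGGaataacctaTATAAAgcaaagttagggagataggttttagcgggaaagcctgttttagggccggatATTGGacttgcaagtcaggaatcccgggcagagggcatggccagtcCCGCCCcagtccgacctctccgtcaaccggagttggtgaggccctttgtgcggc
Tbc1d9b: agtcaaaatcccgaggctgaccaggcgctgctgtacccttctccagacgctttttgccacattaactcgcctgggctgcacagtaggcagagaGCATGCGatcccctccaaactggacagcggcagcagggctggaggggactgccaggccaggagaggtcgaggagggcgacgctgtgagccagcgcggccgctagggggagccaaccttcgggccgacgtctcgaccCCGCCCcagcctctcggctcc
Zswim8: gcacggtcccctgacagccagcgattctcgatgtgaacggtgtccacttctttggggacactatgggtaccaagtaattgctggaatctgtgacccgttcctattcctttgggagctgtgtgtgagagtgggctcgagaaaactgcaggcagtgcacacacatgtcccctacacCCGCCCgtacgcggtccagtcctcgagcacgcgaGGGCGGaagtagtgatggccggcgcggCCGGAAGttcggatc
Nin: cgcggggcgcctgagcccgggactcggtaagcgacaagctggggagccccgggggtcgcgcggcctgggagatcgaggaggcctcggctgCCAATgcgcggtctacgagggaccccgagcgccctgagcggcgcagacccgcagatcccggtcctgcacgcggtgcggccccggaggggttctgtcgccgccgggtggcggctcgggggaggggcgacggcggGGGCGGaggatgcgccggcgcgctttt

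No motif was found in all of the 5 promoters. Irf2bp1 held none of the 13 motifs, with a GC content of 57.2% and 14 CpG sites. Dnajc19 held the GC box of SP and KLF factors (GGGCGG) at 2 places, the CCAAT box of NFY at 1 and a TATA box (TATAAA) at 1. Tbc1d9b held 1 GC box and 1 NRF1 core (GCATGCG), and Zswim8 held 2 GC boxes and 1 ETS core (CCGGAAG). Nin held 1 GC box and 1 CCAAT box, and with a GC content of 77.2% and 38 CpG sites it was the richest of the 5 in both. Over all 32851 RefSeq promoters of the same length, 32.7% held GGGCGG, 33.8% CCAAT, 12.4% TATAAA, 6.91% CCGGAAG and 3.02% GCATGCG. The other motifs searched were GACGTCA of CREB and ATF factors (2.78% of promoters), AAGATGG of YY1 (4.49%), CACGTG of MYC and USF factors (6.02%) and TCTCGCG of ZBTB33 (2.1%). The last were TGANTCA of AP-1 (6.75%), TGTTTAC of FOXA factors (3.17%), TAATTA of homeodomain factors (4.84%) and GTTGCCA of RFX factors (3.66%). A comparison of GC content or motifs over all members was void, because 64.9% of the members and 71.6% of the other promoters had an entry in the promoter table, under the 80% required.

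The members were mostly called in KO-labelled libraries. After PPx, 1610 of the 2701 (59.6%) were called in 0 of 4 control libraries, against 9.09% of the 5349 promoters also listed before. Another 1089 were called in both groups and 2 in controls alone. The largest single class, 1162 peaks, met the listing rule with calls in exactly 2 KO-labelled libraries and none in controls, and 71 were called in 4 KO-labelled and 0 control libraries. At the other end, 4 members were called in all 8 libraries, against 1876 of the other promoters.

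**Figure D1:**
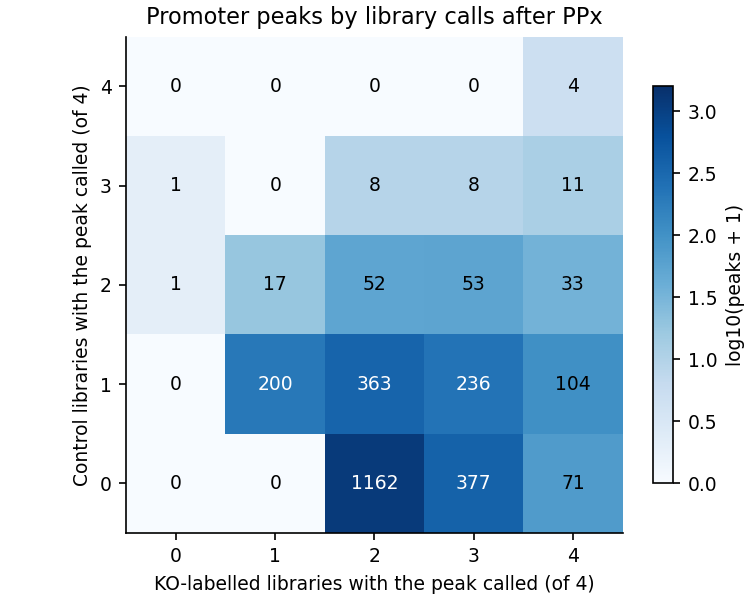
Number of promoter peaks listed only after PPx by the number of control libraries (vertical, of 4) and KO-labelled libraries (horizontal, of 4) in which each was called, shaded by log10 of the number plus 1. The bottom row, with no control call, holds 1162, 377 and 71 peaks at 2, 3 and 4 KO-labelled calls.

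Read density was low at these promoters in both groups. Concentration is the authors' log2 of normalised reads per peak, averaged over a group. Its median over members was 3.07 in controls and 3.67 in KO-labelled islets after PPx, which correspond to 8.4 and 12.7 normalised reads. The middle 50% of the peaks lay between 2.75 and 3.36 in controls and between 3.39 and 3.97 in KO-labelled islets. The promoters also listed before PPx had medians of 4.11 and 4.84, or 17.3 and 28.6 reads. Controls without a call were thus not without reads: the 1162 peaks called in 2 KO-labelled and 0 control libraries had a median control concentration of 2.86. At 24 members both group means stood at the lowest value of the table, -0.26 in controls and -0.13 in KO-labelled islets, although libraries had called a peak there, and their fold of 0.13 is only the difference of these lowest values.

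The members were higher in KO-labelled than in control islets after PPx, as were most peaks of the table. The log2 fold, KO-labelled minus control, had a median of 0.64 over the members (middle 50% 0.37 to 0.87, range -1.32 to 2.16) and was above 0 at 94.3% of them. Over all 13111 peaks the median was 0.61, so the typical member stood 0.03 above the table's own shift, and a fold under 0.61 is below the median peak. The promoters also listed before PPx had a median of 0.73, and peaks outside promoters had 0.38. By the FDR of the authors' deposited table, at a threshold of 0.05, 98 members (3.63%) were gained and 0 lost, where 9.89% of all peaks were gained and 0.0839% lost. The rule used this contrast, so nothing is read from these shares. The deposited FDR was 1 at every member with a mean concentration under 3.5, whatever its p, and among the 1107 members with an FDR below 1 the gained share was 8.85%. Of the promoters also listed before PPx 19.8% were gained, and 21.0% of those with an FDR below 1. Without the FDR, 684 members (25.3%) had an unadjusted p under 0.05 upward and 1 (0.037%) downward. Over all peaks these shares were 33.0% and 0.526%. With every fold centred on the table's median and the standard error implied by the deposited p kept, 0 members passed in either direction after Benjamini-Hochberg adjustment, and 27 were above and 26 below 0 at an unadjusted p under 0.05.

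**Figure D2:**
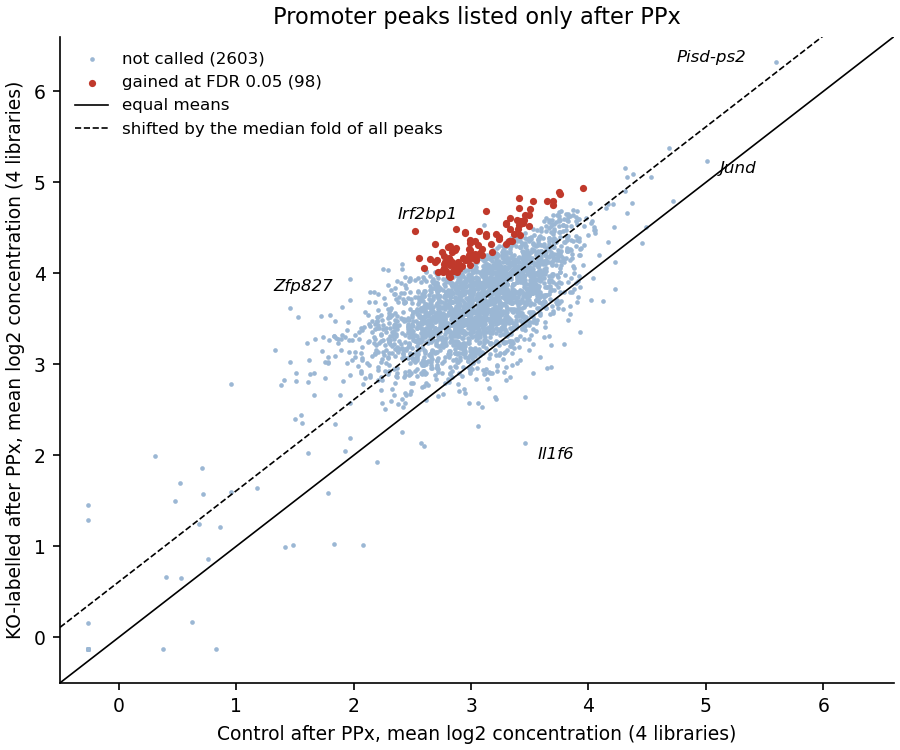
Group mean log2 concentration after PPx in control (horizontal) and KO-labelled islets (vertical) for each of the 2701 promoter peaks, with the 98 gained peaks in red, equal means as a solid line and the median fold of all peaks (0.61) as a dashed line. The cloud lies along the dashed line, and the gained peaks have KO-labelled means of 3.96 and above.

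From a mean concentration of 3 upward, the median folds of the members and of the other promoters were close within each range. Members with a mean concentration of 3.5 to 4 had a median fold of 0.65 in the authors' deposited table (935 peaks), and other promoters in that range had 0.64 (902 peaks). At 3 to 3.5 the medians were 0.60 (1167 members) and 0.64 (215 other promoters), and at 4 and above 0.72 (184 members) and 0.75 (4135 other promoters). Below 3 the members had 0.62 (415 peaks). The 97 other promoters in that range had 0.13, which is the difference of the table's lowest values in the 2 groups, so no comparison is made there. The share gained was larger at higher density in both: 7.49% of members and 9.31% of other promoters at 3.5 to 4, then 15.2% and 23.5% at 4 and above. That last range has no upper limit, and its median control concentration was 3.76 for members and 4.34 for other promoters. Density was thus not alike in it. Below 3.5 none was gained in either class, and the deposited FDR was 1 at 59.0% of members and 6.02% of other promoters. Density and membership are tied by the rule, and what each adds was not tested.

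**Figure D3:**
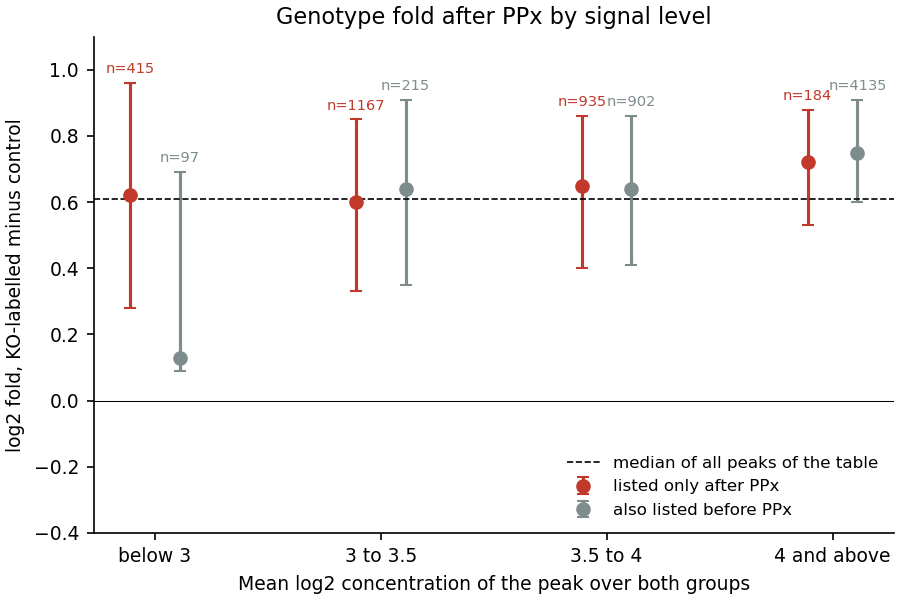
Median log2 fold, KO-labelled minus control after PPx, with bars from the lower to the upper quartile of the peaks, in 4 ranges of mean log2 concentration, for promoters listed only after PPx (red) and also before it (grey); the dashed line is the median of all peaks, 0.61. Below 3 the grey median, 0.13, equals the difference of the table's lowest values and is no measured fold.

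Fold and calls moved together, which was partly fixed in advance because both come from the reads of the same libraries. From the authors' deposited table, the median fold was 0.68, 0.85 and 0.90 for members called in 0 control and 2, 3 or 4 KO-labelled libraries. It was 0.20 for the 200 members called in 1 library of each group, and -0.05 for the 27 called in more control than KO-labelled libraries. All 98 gained members had more KO-labelled than control calls, as did 89.2% of all members. Of the 98, 68 (69.4%) had no control call, beside 59.6% of all members. Members within 1 kb of a start site had a median fold of 0.65 (2465 peaks). Those at 1 to 2 kb had 0.46 (113) and those at 2 to 3 kb 0.40 (123). The other promoters had 0.74, 0.54 and 0.60 at these distances. The 118 members on the X chromosome had a median fold of 0.74 and a control median of 2.76, beside 0.63 and 3.08 on the autosomes. The other promoters on the X chromosome had 0.76 and 3.84, beside 0.73 and 4.11 over all other promoters.

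The gained members had control means of 2.52 to 3.95 and KO-labelled means of 3.96 to 4.94. The selection by FDR favours ranges that stand apart, so nothing is read from this. Over all members the ranges were -0.26 to 5.60 and -0.13 to 6.32. The median fold of the gained members was 1.21 (range 0.99 to 1.94). The smallest FDR belonged to Irf2bp1 (chr7:19003727-19004327). There the authors' deposited table gave 2.52 in controls and 4.46 in KO-labelled islets, a log2 fold of 1.94 (SE 0.47 implied by the deposited p, FDR 0.0172), with calls in 0 control and 3 KO-labelled libraries. Dnajc19 (chr3:34081049-34081649) followed with 2.87 and 4.49, a fold of 1.62 (SE 0.43, FDR 0.0212), and the same calls. The microRNA gene Mir5112, which the naming rule leaves out of the 12, had a control mean of 3.41, a fold of 1.42 and an FDR of 0.0212. Irf2bp1 and Dnajc19 were thus read in controls at levels where no control library yielded a peak.

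Srsf5, Eri1 and Cyfip2 followed among named genes. Srsf5, an SR protein of pre-mRNA splicing, had, in the authors' deposited table, 2.69 in controls and 4.32 in KO-labelled islets. Eri1, an exoribonuclease that trims histone mRNA ends, had 2.95 and 4.45. Cyfip2, a subunit of the WAVE complex that drives actin branching, had 3.13 and 4.69. Their folds were 1.63, 1.50 and 1.56, and each was called in 3 KO-labelled libraries, with 1 control call at Srsf5 alone.

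Tbc1d9b, Zswim8 and Nin, whose promoters are printed above, were each called in 4 of 4 KO-labelled and 0 of 4 control libraries. Tbc1d9b had 2.99 and 4.33 in the authors' deposited table, Zswim8 3.41 and 4.72, and Nin 2.99 and 4.37, so that their folds of 1.34, 1.31 and 1.39 were close.

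Cdc16, Cdca7l, Iqck and Btbd1 completed the 12. Cdc16, a subunit of the anaphase-promoting complex that marks mitotic proteins for destruction, had 2.71 in controls and 4.15 in KO-labelled islets in the authors' deposited table, a fold of 1.44. Cdca7l, a MYC-interacting relative of a cell division gene, had 2.75 and 4.23, a fold of 1.49. Iqck had 3.33 and 4.61, and Btbd1 had 3.07 and 4.46, with Btbd1 called in only 2 KO-labelled libraries. A second Iqck promoter peak among the members had 2.44 and 2.57, a fold of 0.13. Thus 1 gene held both a gained promoter peak and one that was not gained.

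The same promoters were next followed before and after PPx. Of the 2701 members, 2505 (92.7%) matched a peak of the PPx comparison in KO-labelled islets by at least 1 bp, and 382 (14.1%) matched one in control islets. The other promoters matched at 99.6% and 92.2%. Members found in the KO-labelled PPx table alone numbered 2162, in the control one alone 39, in both 343 and in neither 157. The KO-labelled libraries taken after PPx enter both the rule and this comparison, and the rule required that peaks be missing before, so these values are also descriptions.

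In KO-labelled islets the members' median concentration was 2.77 before PPx and 3.71 after it. The log2 fold, after minus before, had a median of 0.97 in the authors' deposited table (middle 50% 0.71 to 1.25) and was above 0 at 99.3% of the matched members. All 12767 peaks of that table had a median of 0.83 and the matched other promoters had 0.83, from 3.97 before PPx to 4.84 after. At an FDR of 0.05, 169 members (6.75%) were gained and 0 lost, where 7.45% of all peaks were gained and 0.0% lost. With folds centred on the table's median, 0 members passed and 31 were above 0 at an unadjusted p under 0.05. Before PPx, 1861 of the 2505 were called in 0 of 3 KO-labelled libraries and 627 in 1. The median fold was 1.04 in the former and 0.79 in the latter.

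In control islets the 382 matched members had a median of 3.30 before PPx and 3.56 after it. Their median fold was 0.25 in the authors' deposited table, beside 0.16 over all 8070 peaks, and 78.0% were above 0. None passed an FDR of 0.05, as 0.0% of all peaks did in that table. An unadjusted p under 0.05 was found upward at 22 (5.76%) and downward at 0. Over all peaks of that table these shares were 2.43% and 0.0991%. At the 343 members found in both PPx tables, the median fold was 1.07 in KO-labelled and 0.25 in control islets. Before PPx these 343 had a median concentration of 2.92 in KO-labelled and 3.31 in control islets. Over all peaks the median folds of the 2 tables were 0.83 and 0.16, and the matched other promoters had 0.83 and 0.15. The 2 tables were normalised separately and the difference of their folds was not tested here.

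**Figure D4:**
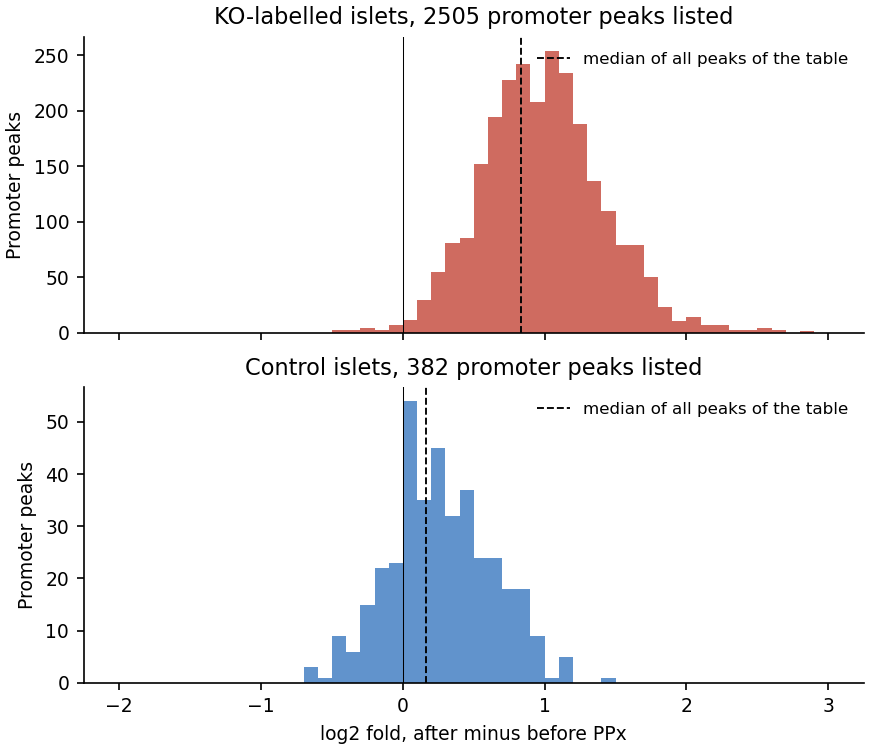
Number of promoter peaks by log2 fold, after minus before PPx, in KO-labelled islets (top, 2505 peaks) and control islets (bottom, 382 peaks), with the median of all peaks of each table dashed (0.83 and 0.16). Nearly all KO-labelled folds are above 0, and the control folds lie on both sides of it.

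The 12 gained promoters named above were next read before and after PPx in KO-labelled islets, a comparison that shares the KO-labelled libraries taken after PPx. In the authors' deposited tables Dnajc19 had 2.83 in KO-labelled islets before PPx and 4.49 after, a fold of 1.66 (SE 0.47, FDR 0.0289). Irf2bp1 had 3.12 before and 4.46 after, a fold of 1.34 (SE 0.52), and its FDR of 0.0617 missed the threshold. Cyfip2 had 3.44 and 4.69 and an FDR of 0.219.

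The others of the 12 spread on both sides of the threshold in the authors' deposited tables. Past it were Nin at 2.71 before and 4.37 after PPx (FDR 0.0353), Cdca7l at 2.63 and 4.23 (FDR 0.0339) and Zswim8 at 3.21 and 4.72 (FDR 0.0295). Also past it were Tbc1d9b at 2.78 and 4.32 (FDR 0.0341), Srsf5 at 2.73 and 4.34 (FDR 0.0351), Iqck at 3.01 and 4.59 (FDR 0.0303) and Cdc16 at 2.76 and 4.26 (FDR 0.0468). Eri1 and Btbd1 had folds of 1.01 and 1.11 with FDRs of 0.0924 and 0.0679. All 98 gained members were matched in this table, with medians of 3.04 before PPx and 4.28 after it and folds of 0.58 to 2.12. Of the 98, 38 (38.8%) were gained here too and 60 were not, beside 6.75% gained of all matched members. The shared libraries favour a larger share, so nothing is read from it. Among the 12, only Iqck had a match in the control PPx table, at 3.71 before and 3.46 after PPx.

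**Figure D5:**
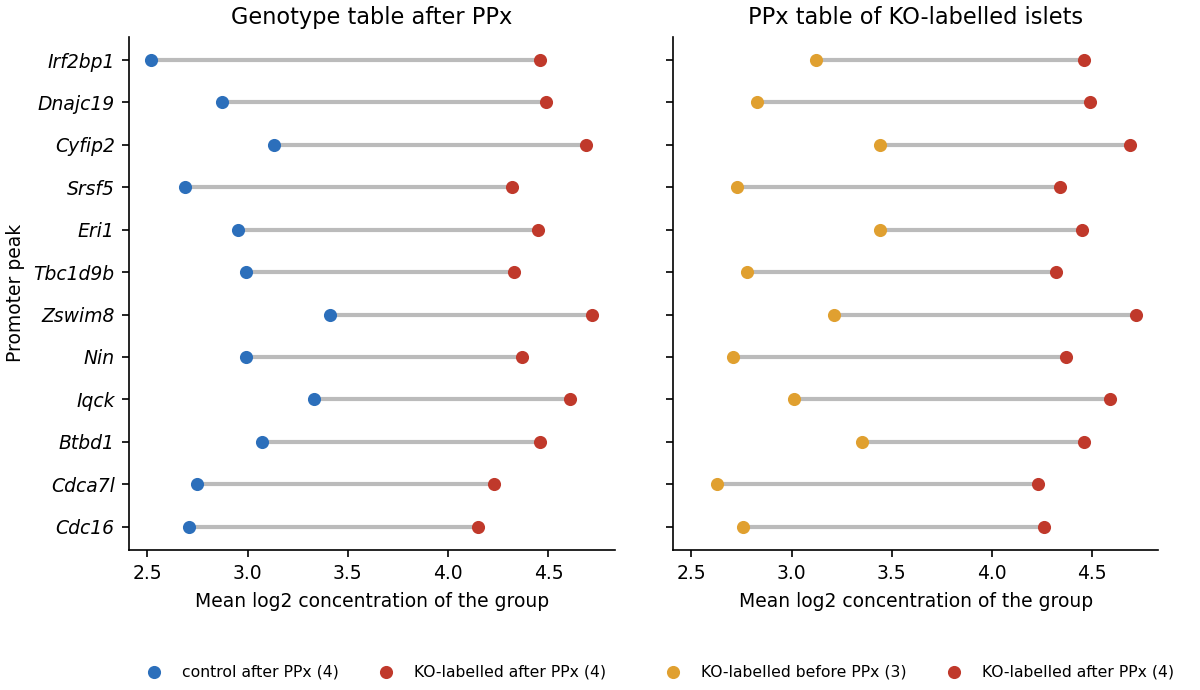
Group mean log2 concentration of the 12 gained promoter peaks with the smallest FDR, without predicted, RIKEN and microRNA genes: control and KO-labelled islets after PPx (left) and KO-labelled islets before and after PPx (right), with 3 or 4 libraries behind each mean. The red points, KO-labelled after PPx, lie to the right of the partner point in every pair, with Irf2bp1 furthest apart on the left.

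The largest and smallest folds were mostly peaks of low density with a deposited FDR of 1. Zfp827, a zinc finger gene, had, in the authors' deposited table, 1.46 in controls and 3.62 in KO-labelled islets, a fold of 2.16. Zmat3, a p53-responsive RNA-binding protein gene, had 1.53 and 3.52, and Zrsr2, a gene of the minor spliceosome, had 1.97 and 3.94. On the other side, Il1f6, an interleukin-1 family cytokine gene, had 3.46 and 2.14, a fold of -1.32 with 1 call in each group. Rnu3b4, Trav13n-3 and Sult1c2 had folds of -1.05, -0.96 and -0.82. None of these 7 passed the FDR.

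The members with the highest control means were unlike the rest. Pisd-ps2, a pseudogene whose reads can be split with its parent gene, had, in the authors' deposited table, 5.60 in controls and 6.32 in KO-labelled islets. Jund, an AP-1 transcription factor gene, had 5.01 and 5.24. Both were called in all 8 libraries after PPx. Chmp2a, a gene of the ESCRT-III membrane scission complex, had 4.72 and 4.79, and Epp13 had 4.69 and 5.38. The folds of Jund (0.23) and Chmp2a (0.07) were under the table's median and turned negative once centred, and none of the 4 passed the FDR.

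Some members lay beside a peak already present before PPx. By the PPx comparisons, 19 members matched a peak called in 2 or more libraries of 1 genotype before PPx, and 16 of the 19 lay within 700 bp of a peak listed in the genotype table before PPx. Jund, 247 bp away, was called in 3 of 3 KO-labelled libraries before PPx, and so was Pisd-ps2, 183 bp away. Of these 19, 4933440N22Rik and Fbxl12os were gained by genotype after PPx (named after their values were seen), and without all 19 there were 96 gained among 2682 members with the same median fold of 0.64. At the edge of the rule, Snx25 and Pam lay 11 and 12 bp from a peak listed before. Just outside it, Meox2 and Sos2 shared 36 bp with one and had folds of 0.33 and 0.77 in the authors' deposited table. Over all members the median gap to the nearest peak before PPx was 71.3 kb, 30 had one within 1000 bp, and 389 (14.4%) were near a gene with another peak before PPx.

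Of the members, 94.4% matched a gene of the RefSeq table, and of these 89.6% were protein coding and 6.86% long non-coding, beside 91.8% and 6.52% of the other promoters. Median gene spans were 25.7 and 28.8 kb. By chromosome, the members made up 26.0% (chromosome 13) to 44.9% (chromosome 19) of the promoter peaks on the autosomes and X. Several peaks fell to 1 gene at 49 genes. The symbol Galnt2l carried 6 members between chr8:120113642 and chr8:123374109, a stretch too long for 1 promoter, so that symbol names no single promoter here.

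Of the 12 promoter peaks of 30 beta cell identity genes, 3 were members (33.6% of all promoter peaks were). Of these 3, 0 were gained, beside 3.63% of all members. Pcsk1, a prohormone convertase that cleaves proinsulin, had, in the authors' deposited table, 2.86 in controls and 3.87 in KO-labelled islets, with calls in 0 and 4 libraries and a fold of 1.02 (FDR 1). Mafa, an activator of the insulin gene, had 3.43 and 3.81, and Ucn3, a maturity marker, had 3.38 and 3.43, and both of these folds were under the table's median. The 9 other beta cell promoters were also listed before PPx, and 4 of them were gained, beside the same 19.8%.

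Of 19 promoter peaks of vesicle trafficking and exocytosis genes, 10 were members (52.6%, beside 33.6% of all promoter peaks). Of these 10, 1 was gained, beside 3.63% of all members. That was Unc13b, which primes vesicles for fusion, with 3.35 and 4.36 in the authors' deposited table, a fold of 1.00 (SE 0.37, FDR 0.0483). Syt5, a calcium sensor of the synaptotagmin family, had a fold of 0.95 (FDR 0.0754). Rims2, a scaffold of the release site, had 4.33 and 5.06, a fold of 0.73 (FDR 0.112). In the KO-labelled PPx table Rims2 was gained, from 3.63 to 4.96 (FDR 0.0406). It was higher after PPx in controls too, from 3.65 to 4.37, a fold of 0.71 that did not pass (FDR 0.999).

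Cell cycle promoters were counted by role. Over all promoter peaks 33.6% were members, and of all members 3.63% were gained. Of the cell cycle inhibitor genes, 0 of 6 promoter peaks were members, and 4 of the 6, all listed before PPx, were gained, beside 19.8% of all promoters also listed before. Of the drivers of G1 and S phase 6 of 17 (35.3%) were members, and of mitosis genes 7 of 29 (24.1%). In both lists 0 members were gained. Cdk4, a kinase of G1, had, in the authors' deposited table, 3.69 and 4.59, a fold of 0.91 (FDR 0.0616), and was called in 0 control and 3 KO-labelled libraries. Mki67, a marker of cycling cells, had 2.90 and 3.56, a fold of 0.66 (FDR 1).

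DNA replication and repair genes had 12 members of 31 promoter peaks (38.7%, beside 33.6% of all promoter peaks). Of these 12, 1 was gained, beside 3.63% of all members, and their median fold of 0.48 is under the table's median. The gained one was Rfc1, the large subunit of the loader of the replication clamp, with 2.81 and 3.98 in the authors' deposited table, a fold of 1.17 (SE 0.42, FDR 0.0461). Rfc4, another subunit of that loader, had 3.31 and 4.13 (FDR 0.102). It was gained with PPx in KO-labelled islets, from 2.14 to 4.17 (FDR 0.0282), while in controls it had 3.66 before and 3.34 after. Rrm2, a subunit of the enzyme that makes deoxynucleotides, had 3.48 and 4.20 after PPx (FDR 0.137).

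In the growth factor signalling lists 0 members were gained, beside 3.63% of all members. Of the ligands and receptors of the EGF and neuregulin system, 4 of 7 promoter peaks were members (57.1%, beside 33.6% of all promoter peaks). Egf had, in the authors' deposited table, 3.02 in controls and 3.95 in KO-labelled islets, a fold of 0.92 (FDR 0.0755), and Hbegf, another ligand of the EGF receptor, had 3.56 and 3.49, a fold of -0.06. Akt2, a kinase below the insulin receptor, had 3.17 and 4.19 (FDR 0.0677) and was gained with PPx in KO-labelled islets, from 2.72 to 4.20 (FDR 0.0472). Bmpr2, a receptor for bone morphogenetic proteins, had 2.47 and 3.92, a fold of 1.45 at an unadjusted p of 0.00108, but its deposited FDR was 1. It too was gained with PPx in KO-labelled islets, from 2.16 to 3.92 (FDR 0.0387). The members of ERBB-MAPK signalling numbered 8 of 25 (32.0%), with a median fold of 0.42, below the table's median.

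Of the SWI/SNF subunit genes, 7 of 13 promoter peaks were members (53.8%, beside 33.6% of all promoter peaks), and 0 were gained, beside 3.63% of all members. Smarcd2 had 3.03 and 4.04 in the authors' deposited table, a fold of 1.01 (FDR 0.0624), with calls in 0 control and 4 KO-labelled libraries. Actb, whose actin is also a SWI/SNF subunit, had 3.48 and 4.18. Among other chromatin regulators, 9 of 35 were members and 0 gained. Kdm5c, an X-linked histone H3K4 demethylase gene, came nearest with 2.87 and 3.98, a fold of 1.12 (FDR 0.052).

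In the large gene families the gained members are to be read beside the 3.63% gained over all members. By the authors' deposited table the solute carriers had 2 of 50, Slc22a15 with a fold of 1.15 (FDR 0.0373) and Slc35e4 with 1.28 (FDR 0.0396). The zinc finger genes had 1 of 54, Zfp704 with 3.70 and 4.79 (FDR 0.0348), which was gained with PPx in KO-labelled islets too, from 3.03 to 4.79 (FDR 0.023). The respiratory chain had 1 of 18, Uqcr10 of complex III with a fold of 1.16. The proteasome had 1 of 10, Psmd6 of its regulatory lid with 1.13. The Tmem genes had 1 of 26, Tmem37 with 1.17. Of the 19 cytosolic and 13 mitochondrial ribosomal protein genes 0 were gained: Rps15a had a fold of 1.35 with an FDR of 1, and Mrps36 one of 0.90 with an FDR of 0.0605. Ribosomal protein genes have many copies elsewhere in the genome, and whether reads at their promoters are split with these was not tested. Predicted, RIKEN and microRNA genes made up 416 members, 14 of them gained, with a median fold of 0.57.

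Among markers of other cell types, members were 1 of 4 alpha cell promoter peaks and 1 of 1 of delta and PP cells. Acinar cells had 1 of 1 and stellate cells and fibroblasts 2 of 2, beside 33.6% of all promoter peaks. Of these members 0 were gained (3.63% of all members were). The alpha cell gene Slc7a2 had, in the authors' deposited table, 3.45 in controls and 4.18 in KO-labelled islets, and the delta and PP cell gene Bche had 3.84 and 3.55. The acinar gene Bhlha15 had 3.06 and 3.15. The stellate and fibroblast genes Vim and Col3a1 had 3.33 and 3.78, and 3.08 and 3.30. Ductal, endothelial and leukocyte markers had 1 promoter peak each, which was no member, and Schwann cell markers had 0. With PPx in KO-labelled islets Slc7a2 had 2.57 before and 4.20 after and passed the threshold (FDR 0.041). Bche at 2.37 and 3.52, Vim at 2.84 and 3.63, and Col3a1 at 2.24 and 3.30 were higher after PPx too and did not pass it. In KO-labelled islets 99.3% of the matched members were higher after PPx. The folds of Bche (1.15) and Col3a1 (1.06) were above that table's median of 0.83, and Vim's (0.79) was under it. In control islets Bche had 2.82 before PPx and 3.91 after. Slc7a2 had 3.31 and 3.53 there, Col3a1 had 2.91 and 3.12, and Vim had no match. None of these passed the threshold in controls. The part of a shift in cell types in the members' folds was not tested.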

How the data were processed

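Groups were taken from sample titles: 4 control and 3 KO-labelled libraries before PPx, 4 and 4 after it. Doxycycline was given at 1 g/L for 2 weeks and PPx followed 1 week after withdrawal; 40000 islet cells gave each library, per the labels' protocols. The tools cutadapt, BWA, MACS, DiffBind and ChIPseeker and the mm10 build are named in the submitters' processing notes, without settings; neither the scaling nor the test is given there.

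The authors deposited 4 tables of peaks 601 bp wide: log2 group means of normalised reads (concentration), their difference, and a p-value and FDR from the authors' test. In the deposited tables, counts give the libraries of each group in which a peak was called. Mice were separate per the labels' protocols, and the p-value was taken to measure the spread between mice. Without the test this could not be checked.

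Repeated rows (5281 of 18392 in the genotype table after PPx, and 1197, 4588 and 1337 in those before PPx, of PPx in KO-labelled and of PPx in control islets) and 1 blank row were dropped, which left 13111, 7826, 12767 and 8070 peaks. Peaks were matched across tables by 1 bp. Gained means an FDR of 0.05 or below. A fold's standard error was taken as the fold over the normal quantile that its deposited p implies (two-sided). Where the fold was under 0.1 or p at least 0.95, the median of its concentration bin, 1 of 40, was used. Overlap and standard error steps were tested on simulated data. Alternatives were a 300 bp overlap, a 1000 bp window, promoters within 1 kb, calls in 4 of 8 libraries, no other peak of the gene before, other FDR limits, Benjamini-Hochberg over all p-values and centred folds. The members, the 39 gene lists, the motifs and the tests were chosen with earlier results of these data known. Named, without predicted, RIKEN and microRNA symbols and with 1 peak per gene, were the 12 gained members with the smallest FDR, the 4 with the largest and the 4 with the smallest fold, the 4 with the highest control mean, and up to 3 per list and 2 on each side of the rule's edge, of which some are printed; others are marked. Python 3.11.15, pandas 2.3.3, NumPy 2.4.6, SciPy 1.17.1 and matplotlib 3.10.9 were used.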

Additional observations from a re-analysis of the deposited data

How the results depend on the processing

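The number of members, of gained members and the median fold were 2793, 110 and 0.64 with at least 300 bp shared, 2671, 96 and 0.63 with a 1000 bp window, 2465, 94 and 0.65 within 1 kb of a start, and 2354, 89 and 0.64 when the rule was instead that no peak of the same gene was listed before PPx. Calls in at least 4 of 8 libraries left 580 members and 43 gained. Gained members numbered 0 at an FDR of 0.01 and 325 at 0.1, against 64 after Benjamini-Hochberg adjustment of every listed p, 43 of them among the 98. In the PPx table of KO-labelled islets the gained members numbered 1 at 0.01, 687 at 0.1 and 108 after that adjustment, and 2492 members matched with 300 bp. With centred folds the gained members were 0 in both tables, the median fold was 0.03, and folds turned to -0.38 at Jund, -0.54 at Chmp2a, -0.23 at Mafa, -0.56 at Ucn3, -0.53 at Bhlha15, -0.16 at Vim and -0.39 at Col3a1. Of 56 named members, 20 gained ones lost the call when centred. After the adjustment over every listed p 7 lost it and 4 of low density (Zfp827, Zmat3, Zrsr2 and Bmpr2) gained it. The 1000 bp count of gained members and the values without the 19 peaks were chosen after seeing the data. Single libraries could not be left out, since the tables hold group means. No paired analysis was possible because the groups share no replicate numbers and the tables hold group means only. Low read density, 8.4 normalised reads at the median control member, limits which members could pass.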

Other observations

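The members named here were picked after their values were seen, and no theme is read from them. Usf1, an E-box binding factor, had, in the authors' deposited table, a log2 concentration of 3.17 in controls and 4.32 in KO-labelled islets after PPx (FDR 0.0471), and Hes6, a basic helix-loop-helix factor of the Hes family, had 3.49 and 4.52 (FDR 0.0402). Ppargc1b, a coactivator of mitochondrial genes, had 3.45 and 4.59 (FDR 0.0371). Lats2, a kinase of the Hippo pathway, had 3.02 and 4.17 (FDR 0.0393). Pkmyt1, an inhibitory kinase of CDK1, had 3.49 and 4.64 (FDR 0.0357), and Pim2, a growth-promoting kinase, had 2.89 and 4.13 (FDR 0.0496). Usf1, Hes6, Ppargc1b and Pkmyt1 were called in 0 control libraries, and Lats2 and Pim2 in 1.

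Dnaja3, a mitochondrial co-chaperone, had, in the authors' deposited table, 3.21 and 4.43 (FDR 0.0345), and Bag2, a co-chaperone of HSP70, had 3.95 and 4.94 (FDR 0.0475). Spcs1, a subunit of signal peptidase, had 3.03 and 4.36 (FDR 0.0286), and Emc6, of the complex that inserts membrane proteins, had 2.85 and 4.03 (FDR 0.0453).

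The smallest FDR of a member in the PPx table of KO-labelled islets belonged to Nedd8, the ubiquitin-like modifier that activates cullin ligases. In the authors' deposited tables its promoter rose from 1.75 before PPx to 4.44 after it in KO-labelled islets, a fold of 2.69 (SE 0.57, FDR 0.0077), from calls in 0 of 3 to 4 of 4 libraries. By genotype after PPx it had 3.46 in controls and 4.44 in KO-labelled islets, which missed the threshold (FDR 0.0585).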
